A study of Mus musculus with 29 samples.

Results

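The genes described here encode the conjugating enzymes of phase II metabolism in mouse liver: glutathione transferases, UDP-glycosyltransferases and sulfotransferases. They were taken by name, as all array rows that were not controls and whose gene name began with 1 of 16 prefixes (Gsta, Gstm, Gstp, Gstt, Gstk, Gsto, Gstz, Mgst, Ugt1a, Ugt2a, Ugt2b, Ugt3a, Sult1, Sult2, Sult3 or Sult5). This gave 53 genes with 74 probes, of 31693 genes with 39429 probes on the array. The classes held 24 glutathione transferase, 14 UDP-glycosyltransferase and 15 sulfotransferase genes. Livers of 29 male wildtype C57BL/6N mice, 1 array each, were compared in 4 diet groups. The mice entered at 3 months of age and had free access for 7 weeks to a high-fat diet made with corn oil (cHF). The 7 mice of the cHF group received no supplement, 8 received omega-3 phospholipids rich in phosphatidylcholine (cHF+PC), 6 a low dose of rosiglitazone (cHF+R) and 8 both (cHF+PC+R). The phospholipids carried EPA and DHA in place of about 7% of the dietary lipid, and rosiglitazone is a drug that activates PPAR-gamma, a nuclear receptor. Since every group ate the high-fat diet, the comparisons show what a supplement changed on that diet, with no group on chow.

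Conjugation makes reactive or fat-soluble compounds more soluble in water, so that transporters can pass them into bile or blood. Glutathione transferases attach the tripeptide glutathione to electrophiles such as products of lipid peroxidation. UDP-glycosyltransferases attach a sugar, mostly glucuronic acid, to bilirubin, steroids, bile acids and drugs, and sulfotransferases attach sulfate from the donor PAPS to steroids, phenols and thyroid hormones. The liver is a main site of all 3 reactions, and several of these genes are known targets of the xenobiotic receptors Nr1i2, Nr1i3 and Ahr and of the oxidative stress factor Nfe2l2.

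Each value is the log2 ratio of 1 liver, labelled with Cy5, to a pool of all samples, labelled with Cy3, so that 0 means the level of the pool. A change is a difference between the mean log2 ratios of 2 groups, given with its standard error from limma. Rose and fell are used only of genes whose Benjamini-Hochberg adjusted p over all 19463 genes tested was below 0.05. Of the 43020 spots, 80.8% were well above background on the array of cHF replicate 4 and 55.0% to 62.5% on the others. Precision is limited by the number of arrays. Between the log2 ratios of 2 arrays, of the same group or not, the median correlation was r = 0.219 and the lowest was r = -0.305. These values cover all 39429 probes, dim ones included. They compare ratios to a shared pool, so they do not measure how well an array repeats. The labels state the dyes, so the direction was kept. The 11 hepatocyte markers examined were above background on all 29 arrays.

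Of the 53 conjugation genes, 42 could be tested: 22 of 24 glutathione transferases, all 14 UDP-glycosyltransferases and 6 of 15 sulfotransferases. A gene was tested where 1 of its probes was well above background on 6 arrays or more and gave values for 20 or more. The 11 genes not tested were Gstt4, Gstz1, Sult1c1, Sult1e1, Sult2a1, Sult2a2, Sult2a3, Sult2a4, Sult2a6, Sult2b1 and Sult3a1. Sult1e1, the estrogen sulfotransferase, was well above background on 4 arrays, 2 of cHF+PC and 2 of cHF+PC+R. Gstz1, an enzyme of tyrosine breakdown, was bright on all 29 arrays but kept a value on only 18, because the other spots were marked as uneven. With the marked spots kept, its log2 change was 0.08 in cHF+PC, -0.11 in cHF+R and 0.02 in cHF+PC+R against cHF, none past the threshold. No spot of a member was saturated.

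**Figure D1:**
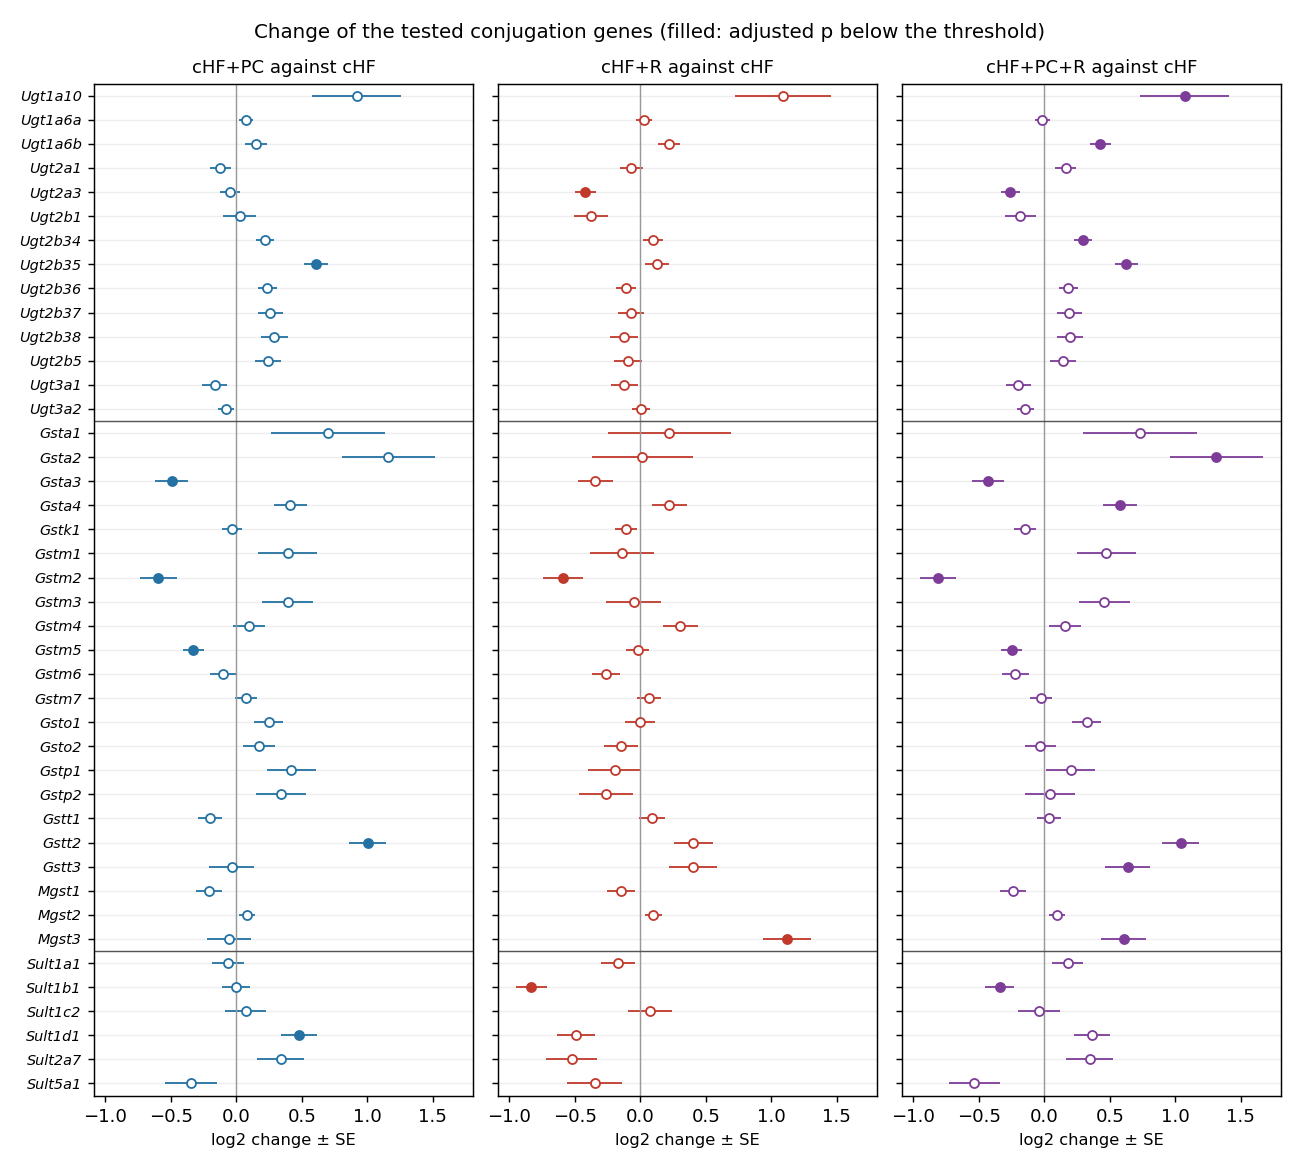
Log2 change against cHF (points) with its standard error (bars) for the 42 tested conjugation genes, in rows grouped by enzyme class, for cHF+PC (left), cHF+R (middle) and cHF+PC+R (right). Filled points passed the threshold, 6, 4 and 14 in the 3 panels; Gstt2 and Ugt2b35 are filled at the left and right, Mgst3 and Sult1b1 in the middle and at the right.

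Many members lie in gene clusters. In the RefSeq annotation of GRCm38.p6, 46 of the 53 members had a promoter entry, 57 promoters in all. The 250 bases before the start site of 6 members that changed are printed here 5′ to 3′, since members of both directions are among them. Capitals mark matches, on either strand, to the core of the antioxidant response element (TGACNNNGC), the core of the xenobiotic response element (GCGTG), the nuclear receptor half-site (AGGTCA) or an HNF1 half-site (GTTAAT). The searches for the direct repeat 1 of that half-site, by name, and for a TATA box core (TATAAA) found nothing in these 6 windows.
Ugt2b35, chr5:87000610-87000859, + strand: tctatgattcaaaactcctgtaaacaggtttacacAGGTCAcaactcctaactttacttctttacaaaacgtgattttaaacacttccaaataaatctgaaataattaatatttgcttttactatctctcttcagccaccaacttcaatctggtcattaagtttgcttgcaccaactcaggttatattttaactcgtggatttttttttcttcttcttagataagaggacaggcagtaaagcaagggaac
Ugt2a3, chr5:87337196-87337445, - strand: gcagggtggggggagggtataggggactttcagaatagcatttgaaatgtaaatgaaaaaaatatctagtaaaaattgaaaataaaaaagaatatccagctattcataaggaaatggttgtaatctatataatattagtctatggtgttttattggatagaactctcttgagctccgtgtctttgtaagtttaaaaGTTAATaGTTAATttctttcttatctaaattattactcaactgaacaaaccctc
Sult1b1, chr5:87536223-87536472, - strand: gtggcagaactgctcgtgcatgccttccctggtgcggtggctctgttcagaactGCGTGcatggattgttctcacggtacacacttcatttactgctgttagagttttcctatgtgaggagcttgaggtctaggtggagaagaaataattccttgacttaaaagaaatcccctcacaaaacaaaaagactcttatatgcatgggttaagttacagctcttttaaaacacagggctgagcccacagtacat
Mgst3, chr1:167393842-167394091, - strand: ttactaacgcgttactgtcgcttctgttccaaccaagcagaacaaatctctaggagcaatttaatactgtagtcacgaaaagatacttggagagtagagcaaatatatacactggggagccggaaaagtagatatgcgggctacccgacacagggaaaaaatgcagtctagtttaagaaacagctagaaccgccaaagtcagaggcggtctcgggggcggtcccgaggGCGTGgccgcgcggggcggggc
Gsta3, chr1:21240335-21240584, + strand: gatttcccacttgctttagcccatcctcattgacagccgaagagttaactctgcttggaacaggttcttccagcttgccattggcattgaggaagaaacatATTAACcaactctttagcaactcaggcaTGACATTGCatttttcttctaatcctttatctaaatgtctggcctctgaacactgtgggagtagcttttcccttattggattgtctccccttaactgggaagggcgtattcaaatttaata
Gstm5, chr3:107895604-107895853, + strand: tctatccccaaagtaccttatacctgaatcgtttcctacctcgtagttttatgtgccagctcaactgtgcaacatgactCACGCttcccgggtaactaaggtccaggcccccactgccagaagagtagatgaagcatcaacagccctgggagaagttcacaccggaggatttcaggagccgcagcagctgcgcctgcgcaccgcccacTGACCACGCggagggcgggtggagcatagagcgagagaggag
Ugt2b35 had the half-site (AGGTCA) from position -215, counted from the start site. Its relatives Ugt2b36, Ugt2b37, Ugt2b38 and Ugt2b5 had it nearer to the start, from -25, -39, -25 and -22. None of these 4 passed in a comparison with cHF, but their changes in cHF+PC were all above 0, from 0.24 to 0.29. Ugt2b36 rose in cHF+PC+R against cHF+R. The window of Ugt2b34, which rose in cHF+PC+R against cHF, held no half-site. A link between the place of the half-site and the changes was not tested. Ugt2a3 held 2 HNF1 half-sites separated by 1 base. Sult1b1 has 2 start sites in RefSeq. The window printed held GCGTG, and the window of its other start site held the nuclear receptor half-site. Gsta3 and Gstm5, which both fell with phospholipids, each held TGACNNNGC, and in Gstm5 that match overlaps a GCGTG match on the other strand. TGACNNNGC was also in windows of Gstm7 and Mgst1, whose changes in cHF+PC, 0.07 and -0.21, did not pass. The promoter of Gstm2, which fell in all 3 supplemented groups, matched none of the motifs. Among 46 promoters of tested members, 4 held TGACNNNGC (8.70%), 8 held GCGTG (17.4%), 7 held AGGTCA (15.2%) and 7 held GTTAAT (15.2%). Of all 32851 mouse promoters of that length, 10.2%, 28.2%, 14.0% and 6.43% did so. The table of promoters has no entry for Gstt2, Gsta4 or Ugt1a6b.

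The first comparison set cHF+PC against cHF and asked what the phospholipids changed. Of 42 conjugation genes, 3 rose (Gstt2, Ugt2b35 and Sult1d1) and 3 fell (Gstm2, Gsta3 and Gstm5). These 6 calls stand against 3.93% of all genes called in this comparison, 1.82% higher and 2.11% lower. The median log2 change of the 42 genes was 0.09, and that of all genes was 0.00. At an unadjusted p below 0.05, 18 of the 42 conjugation genes passed, against 18.5% of all genes (3599 of 19463).

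Gstt2 showed the clearest difference. It encodes a theta-class transferase that acts on organic hydroperoxides and sulfate esters, and its probe lies at chr10:75295206-75295265 in mm9. Its log2 ratio ran from -1.19 to -0.64 in cHF, with a median of -0.80, and from -0.28 to 0.85 in cHF+PC, with a median of 0.13. In cHF+R it ran from -0.74 to -0.28, with a median of -0.37, and in cHF+PC+R from -0.16 to 0.80, with a median of 0.17. Every liver given phospholipids, alone or with rosiglitazone, lay above every cHF liver. The change in cHF+PC was 1.00 ± 0.139, a 2.00-fold rise (adjusted p = 7.57e-05), with the higher value in 7 of 7 slides that carried both groups. Of the other theta genes, Gstt1 had a change of -0.20 ± 0.0896 (adjusted p = 0.231) and Gstt3 one of -0.03.

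Ugt2b35, a glucuronosyltransferase of the cluster on chromosome 5, also stood higher in both phospholipid groups. Its probe lies at chr5:87441721-87441780 in mm9. Its log2 ratio ran from -0.55 to -0.31 in cHF, with a median of -0.42, and from -0.17 to 0.46 in cHF+PC, with a median of 0.22. In cHF+R it ran from -0.51 to -0.21, with a median of -0.27, and in cHF+PC+R from -0.07 to 0.60, with a median of 0.21. Values on 2 cHF+PC arrays and 1 cHF+PC+R array were left out as marked spots. The phospholipid groups did not overlap with the others in the remaining arrays. The rise in cHF+PC was 0.61 ± 0.0914 (adjusted p = 0.000257) at this probe and 0.49 at its second probe (adjusted p over probes = 0.0024). The 7 genes of the Ugt2b group had a median change of 0.24, and 6 of them had an unadjusted p below 0.05, but Ugt2b35 was the only one past the threshold. Ugt2b36 and Ugt2b34 came next, at 0.24 ± 0.0719 (adjusted p = 0.0564) and 0.22 ± 0.0677 (adjusted p = 0.0647). Ugt2b38, Ugt2b37 and Ugt2b5 had changes of 0.29, 0.26 and 0.24, and Ugt2b1 one of 0.03.

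Sult1d1, a sulfotransferase of catecholamines, rose by 0.48 ± 0.138 (adjusted p = 0.0459) at its brighter probe, while its other probe had a change of 0.10 (adjusted p over probes = 0.74). That call was lost without any 1 of 11 of the 15 arrays compared, with a highest adjusted p of 0.103, and also when the fit held a term for slide (0.0812). The 3 genes that fell are transferases of the mu and alpha classes. Gstm2, a cytosolic mu-class transferase, had log2 ratios from 0.01 to 0.80 in cHF, with a median of 0.40, and from -0.52 to 0.35 in cHF+PC, with a median of -0.07. In cHF+R they ran from -0.39 to 0.14, with a median of -0.11, and in cHF+PC+R from -0.92 to 0.19, with a median of -0.34. The supplemented groups overlapped with cHF at its low end. Gstm2 fell by 0.60 ± 0.141 in cHF+PC (adjusted p = 0.0140), in 7 of 7 slides, and its other 2 probes had changes of -0.51 and -0.28.

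Gstm5, another mu-class gene, ran from -0.04 to 0.33 in cHF, with a median of 0.12, and from -0.41 to 0.05 in cHF+PC, with a median of -0.22. In cHF+R it had a median of 0.12 and ran from -0.12 to 0.26, and it ran from -0.33 to 0.24 in cHF+PC+R, with a median of -0.11. The ranges of cHF and cHF+PC overlapped only between -0.04 and 0.05. Gstm5 fell by 0.33 ± 0.0798 in cHF+PC (adjusted p = 0.0160), lower in 6 of 7 slides. Gsta3, an alpha-class transferase that also isomerises steroids, fell by 0.49 ± 0.124 (adjusted p = 0.0210). It was lower in 7 of 7 slides, and its second probe had a change of -0.40. The call was lost without cHF replicate 7 (adjusted p = 0.0548) or cHF+PC replicate 4 (0.0501), and from Cy5 alone the change was -0.07. With median centring in place of loess, 0 of the 42 genes passed in this comparison (10 of all genes), and with scaling between arrays 3 did (273 of all genes).

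**Figure D2:**
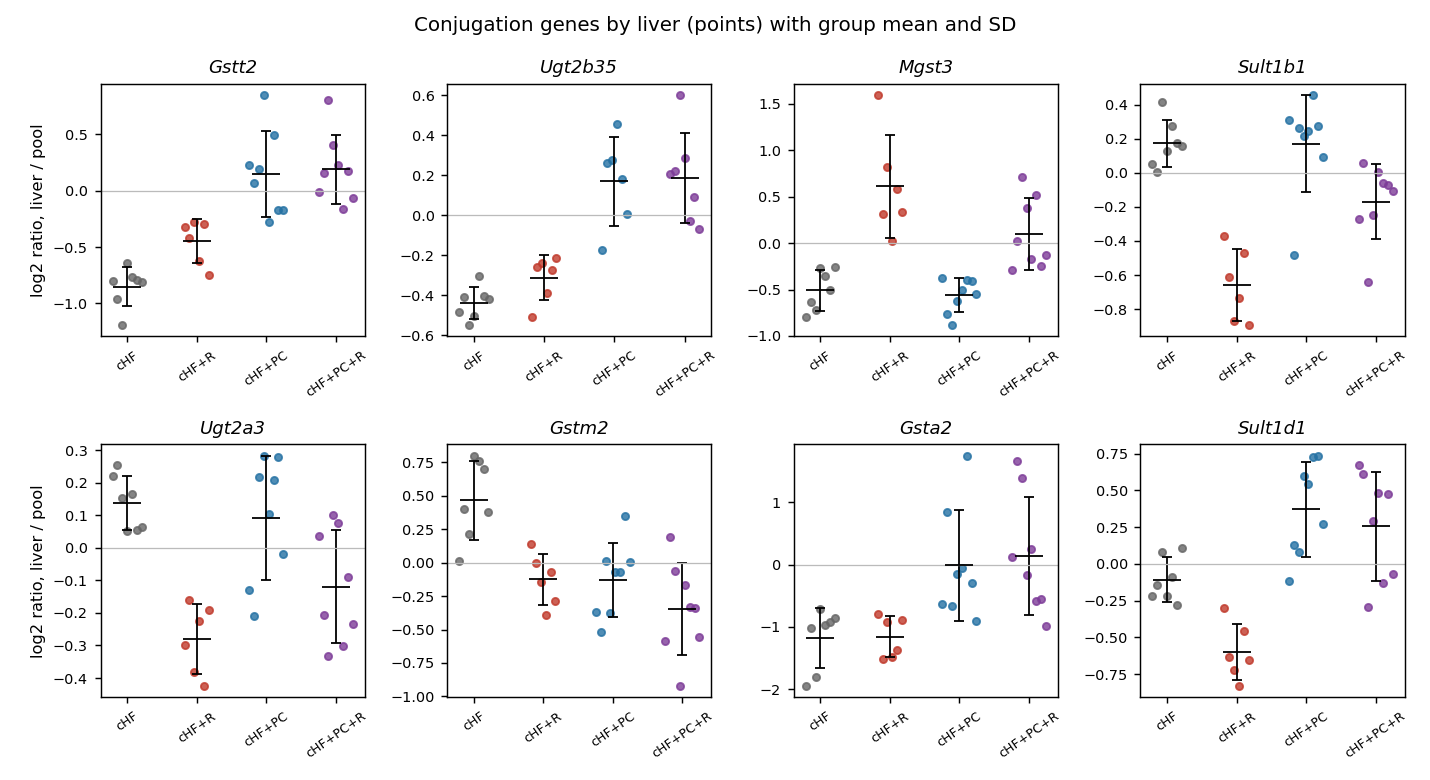
Log2 ratio of each liver to the pool (points, 1 per array with a value) for 8 conjugation genes in the 4 diet groups, with the group mean (long bar) and its SD (whiskers); the vertical scale differs between panels. Gstt2 and Ugt2b35 stand higher in both phospholipid groups than in cHF, Mgst3 stands higher and Sult1b1 lower in cHF+R, and Gsta2 spreads widely in both phospholipid groups.

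The second comparison set cHF+R against cHF and asked what low-dose rosiglitazone changed. Of 42 conjugation genes, 1 rose (Mgst3) and 3 fell (Sult1b1, Ugt2a3 and Gstm2), against 3.12% of all genes called, 2.02% higher and 1.09% lower. The median log2 change of the 42 genes was -0.07 and that of all genes 0.01, but with median centring in place of loess they were 0.23 and 0.15. At an unadjusted p below 0.05, 14 of the 42 conjugation genes passed, against 15% of all genes (2912 of 19463).

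Mgst3, a membrane enzyme with glutathione transferase and peroxidase activity, was the only member to rise. Its probe lies at chr1:169303928-169303987 in mm9. In cHF its log2 ratio ran from -0.80 to -0.26, with a median of -0.51, and in cHF+R from 0.02 to 1.59, with a median of 0.46. In cHF+PC it ran from -0.88 to -0.38, with a median of -0.53, and in cHF+PC+R from -0.29 to 0.71, with a median of -0.06. No cHF+R liver overlapped with a liver of cHF or cHF+PC. The rise was 1.12 ± 0.183, or 2.17-fold (adjusted p = 0.000342), in 5 of 5 slides, and 1.03 at the second probe. The other microsomal genes Mgst1 and Mgst2 had changes of -0.15 and 0.10.

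Sult1b1, which sulfates thyroid hormones and phenols, showed the largest fall. Its log2 ratio ran from 0.01 to 0.41 in cHF, with a median of 0.16, and from -0.89 to -0.37 in cHF+R, with a median of -0.67. In cHF+PC it ran from -0.48 to 0.46, with a median of 0.25, and in cHF+PC+R from -0.64 to 0.05, with a median of -0.09. The cHF and cHF+R groups did not overlap, and the livers given both supplements had a median between theirs and overlapped with each. Sult1b1 fell by 0.83 ± 0.118 with rosiglitazone (adjusted p = 5.56e-05), in 5 of 5 slides. In cHF+PC its change was 0.00 (adjusted p = 0.997).

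Ugt2a3, a glucuronosyltransferase of bile acids, ran from 0.05 to 0.26 in cHF, with a median of 0.15, and from -0.42 to -0.16 in cHF+R, with a median of -0.26. It ran from -0.21 to 0.28 in cHF+PC, with a median of 0.16, and from -0.33 to 0.10 in cHF+PC+R, with a median of -0.15. The cHF and cHF+R groups did not overlap, while both phospholipid groups overlapped with cHF. Ugt2a3 fell by 0.42 ± 0.0808 (adjusted p = 0.00211), in 5 of 5 slides. Gstm2 fell by 0.59 ± 0.152 (adjusted p = 0.0249), lower in 4 of 5 slides, and that call was lost with the slide as a block (0.0684), and on leaving out cHF replicate 4 (0.0633), 5 (0.0624) or 6 (0.0532) or replicate 4 of cHF+R (0.0675). Sult1d1 came next at -0.49 ± 0.149 (adjusted p = 0.0673), with no overlap between the groups and -0.53 at its other probe (adjusted p over probes = 0.024). Of the 6 tested sulfotransferases 5 had a change below 0, with a median of -0.42, and of -0.22 with median centring.

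Adipocyte markers stood higher in the same cHF+R livers. The summed Cy5 intensity of 7 markers in cHF+R had a median of 71409 and a range from 17674 to 205091, and ran from 4721 to 10099 in cHF. It ran from 3550 to 8341 in cHF+PC and from 5412 to 190840 in cHF+PC+R, with a median of 11874. Of the 4 markers tested, 3 rose in cHF+R: Cfd by 4.51, Fabp4 by 1.27 and Retn by 0.65. The defining markers Adipoq, Plin1 and Lep were above background on 2, 2 and 0 of 29 arrays, and Slc2a4 on 8. The sum adds linear intensities, so the brightest markers weigh most in it. The part of these transcripts in the Mgst3, Sult1b1 and Ugt2a3 results was not tested, and in whole liver fewer cells of a type and less RNA per cell cannot be told apart. With median centring 1 of the 42 genes passed in cHF+R against cHF (81 of all genes, 93.8% of them higher against 64.9% with loess), and with scaling between arrays 0 did (76 of all genes, 86.8% higher).

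The third comparison set both supplements together against cHF. Of 42 conjugation genes, 9 rose and 5 fell, against 9.51% of all genes called, 4.74% higher and 4.76% lower. The median log2 change of the members was 0.16 and that of all genes 0.01. Of the 42 members 24 had an unadjusted p below 0.05, against 24.5% of all genes (4759 of 19463). Glutathione transferases took 5 of the rises and 3 of the falls, UDP-glycosyltransferases 4 rises and 1 fall, and the sulfotransferases 1 fall. The comparisons with cHF share the 7 cHF livers, so the values below are set side by side only. Gstt2 rose by 1.04 ± 0.139 (adjusted p = 1.55e-05), and Ugt2b35 by 0.62 ± 0.0878 (adjusted p = 4.64e-05), each higher in all slides with both groups and with no overlap.

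Of the alpha-class transferases, 2 rose and 1 fell. Gsta2 had log2 ratios from -1.94 to -0.72 in cHF, with a median of -0.97, and from -0.99 to 1.66 in cHF+PC+R, with a median of -0.02. In cHF+PC they ran from -0.90 to 1.74, with a median of -0.22, and in cHF+R from -1.51 to -0.79, with a median of -1.14. The phospholipid groups reached far above cHF but overlapped with it at their low ends. Gsta2 rose by 1.32 ± 0.358, or 2.49-fold, in cHF+PC+R (adjusted p = 0.0182), in 6 of 7 slides, and had a change of 1.16 ± 0.358 in cHF+PC (adjusted p = 0.0615). Gsta4, which conjugates the lipid peroxidation product hydroxynonenal, ran from -0.73 to 0.13 in cHF, with a median of -0.34, and from -0.09 to 0.90 in cHF+PC+R, with a median of 0.14. It ran from -0.20 to 0.39 in cHF+PC, with a median of 0.06, and from -0.33 to 0.08 in cHF+R, with a median of -0.10. The ranges of cHF and cHF+PC+R overlapped between -0.09 and 0.13. Gsta4 rose by 0.58 ± 0.127 in cHF+PC+R (adjusted p = 0.00396), in 7 of 7 slides. Gsta1 had a change of 0.73 ± 0.436 (adjusted p = 0.306), and Gsta3 fell by 0.43 ± 0.124 (adjusted p = 0.0258). At the second probe of Gsta3 the change was -0.29 (adjusted p over probes = 0.089). The Gsta3 call was lost without cHF replicate 4 (0.0543) or 7 (0.0701) and without cHF+PC+R replicate 4 (0.0560) or 8 (0.0538). It was also lost from Cy5 alone.

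Gstt3, a theta-class neighbour of Gstt2 on chromosome 10, passed here as well. Its log2 ratio ran from -0.61 to -0.06 in cHF, with a median of -0.29, and from 0.10 to 0.69 in cHF+PC+R, with a median of 0.23. In cHF+R it ran from -0.80 to 0.60, with a median of 0.16, and in cHF+PC from -1.09 to 0.34, with a median of -0.32. The cHF and cHF+PC+R groups did not overlap, while the groups with 1 supplement spanned both. Gstt3 rose by 0.64 ± 0.171 (adjusted p = 0.0165), in 7 of 7 slides. Mgst3 rose by 0.61 ± 0.170 (adjusted p = 0.0223), which did not pass without cHF replicate 3 (0.0502) or cHF+PC+R replicate 3 (0.0516). Gstm2 fell by 0.81 ± 0.141 (adjusted p = 0.000408), in 7 of 7 slides, with -0.72 and -0.48 at its other probes. Gstm5 fell by 0.25 ± 0.0798 (adjusted p = 0.0457), a call lost without any 1 of 11 of the 15 arrays, with a highest adjusted p of 0.110, and with the slide as a block (0.0923). Of the other glutathione transferases, Gstm1 had a change of 0.47, Gstm3 one of 0.46, Gstm4 one of 0.16, Gsto1 one of 0.32 (adjusted p = 0.0560), Gstp1 one of 0.20, Gstt1 one of 0.04, Gstk1 one of -0.14 and Mgst1 one of -0.24.

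Among the UDP-glycosyltransferases, Ugt1a6b, a gene of the locus that conjugates phenols, rose. Its log2 ratio ran from -0.27 to -0.01 in cHF, with a median of -0.12, and from 0.08 to 0.70 in cHF+PC+R, with a median of 0.30. In cHF+R it ran from -0.09 to 0.36, with a median of 0.10, and in cHF+PC, on 7 arrays with a value, from -0.18 to 0.28, with a median of 0.06. All cHF+PC+R livers lay above all cHF livers. The rise was 0.43 ± 0.0801 (adjusted p = 0.00103), at a probe that also lists Ugt1a10, Ugt1a6a and Ugt1a7c. At the probe that lists Ugt1a6b alone the change was 0.20 (adjusted p over probes = 0.21). Ugt2b34 ran from -0.01 to 0.16 in cHF, with a median of 0.01, and from 0.11 to 0.55 in cHF+PC+R, with a median of 0.36. In cHF+R it had a median of 0.09 and ran from 0.03 to 0.36, and it ran from 0.01 to 0.43 in cHF+PC, with a median of 0.28. The cHF and cHF+PC+R ranges met only between 0.11 and 0.16. Ugt2b34 rose by 0.29 ± 0.0677 (adjusted p = 0.00602), in 7 of 7 slides.

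Ugt2a3 fell by 0.26 ± 0.0752 in cHF+PC+R (adjusted p = 0.0278) and did not pass without cHF replicate 2 (0.0549) or 5 (0.0515), without cHF+PC+R replicate 3 (0.0614) or 6 (0.0508). Sult1b1 fell by 0.34 ± 0.109 (adjusted p = 0.0454), a call lost without any 1 of 10 of the 15 arrays, with a highest adjusted p of 0.108, and with the slide as a block (0.0675). Ugt2b1, Ugt3a1 and Ugt3a2 had changes of -0.18, -0.20 and -0.14. Sult1a1, the main phenol sulfotransferase, had one of 0.18, Sult1c2 one of -0.04 and Sult5a1 one of -0.53 (adjusted p = 0.0853). With median centring or with scaling between arrays, 1 of the 42 genes passed in cHF+PC+R against cHF (82 and 150 of all genes), and from Cy5 alone 8 did (767 of all genes).

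The fourth comparison set cHF+PC+R against cHF+R, the effect of phospholipids where rosiglitazone was given to both groups. It shares no liver with the comparison of cHF+PC with cHF. Of 42 conjugation genes 7 rose and none fell, against 7.14% of all genes called (3.31% higher and 3.83% lower). At an unadjusted p below 0.05, 22 of the 42 members passed, against 22.2% of all genes (4330 of 19463). The median change was 0.20 against -0.01 over all genes, and 0.01 against -0.06 with median centring. Sult1d1 rose by 0.85 ± 0.144 (adjusted p = 0.000387) and its second probe by 0.57 (adjusted p over probes = 0.0071), with no overlap between the groups. Sult2a7, a hydroxysteroid sulfotransferase, rose by 0.87 ± 0.188 (adjusted p = 0.00430), also with no overlap. Sult1b1 rose by 0.49 ± 0.114 (adjusted p = 0.00803), in 6 of 6 slides. So 3 of 6 tested sulfotransferases were higher where phospholipids were added to rosiglitazone.

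Gstt2 and Ugt2b35 rose in this comparison too, by 0.64 ± 0.145 (adjusted p = 0.00685) and 0.50 ± 0.0914 (adjusted p = 0.00119), with no overlap between the groups. Gsta2 rose by 1.30 ± 0.373 (adjusted p = 0.0317) but did not pass without cHF+R replicate 2, 4 or 5 or without cHF+PC+R replicate 2 or 3, with a highest adjusted p of 0.0671. Ugt2b36 rose by 0.29 ± 0.0750 (adjusted p = 0.0172), lost without cHF+R replicate 1 (0.0587), and its probe also lists Ugt2b37. The summed adipocyte markers given above were lower in cHF+PC+R than in cHF+R, with Cfd and Fabp4 past the threshold, and their part in these rises was not tested. With median centring or with scaling between arrays 0 of the 42 genes passed (53 and 74 of all genes, 13.2% and 28.4% of them higher against 46.4% with loess). From Cy5 alone 4 did, of 658 genes in all.

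Against cHF+PC, the livers given both supplements showed 0 of 42 conjugation genes past the threshold by limma. At an unadjusted p below 0.05, 7 of the 42 passed, against 8.53% of all genes (1661 of 19463). Of all genes 0.134% were called, 0.118% higher and 0.0154% lower. The 5 with the smallest p were Gstt3 at 0.67 ± 0.165 (adjusted p = 0.116), Mgst3 at 0.66 ± 0.164 (adjusted p = 0.124), Ugt2a1 at 0.29, Ugt1a6b at 0.28 and Sult1b1 at -0.34. With array weights 4 members passed, and 1 did with no background subtraction, from Cy5 alone and without cHF+PC replicate 2 or 5. The interaction, which asks whether the change with 1 supplement depended on the other, gave 0 called members and 0 called genes by limma, and 6.63% of all genes had an unadjusted p below 0.05. Sult1b1 had the smallest p among members, with an interaction of 0.49 ± 0.158 (adjusted p = 0.607), followed by Ugt2a1 at 0.36, Sult1a1 at 0.41, Gsta3 at 0.40 and Sult2a7 at 0.53. No difference between the effect of rosiglitazone on Sult1b1 with and without phospholipids passed the test.

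Members differed widely in how much livers of 1 group varied. The residual SD over the 29 livers was 0.903 for Gsta1 and 0.741 for Gsta2, against a median of 0.111 over all genes tested. For Ugt1a10 it was 0.704, for Gstm1 0.466 and for Gstm3 0.403, while Ugt1a6a at 0.106 and Mgst2 at 0.118 lay near that median. The probes of Ugt1a6a and Mgst2 were dim, well above background on 13 and 24 of the 29 arrays. The part of low signal in their small spread was not tested. Gsta1, Gsta2, Gstm1 and Gstm3, picked after their values were seen, were high in the same 2 livers of cHF+PC+R. In cHF+PC the highest liver was not the same for all 4. In cHF+PC+R replicate 2 the log2 ratios of Gsta1, Gsta2, Gstm1 and Gstm3 were 1.82, 1.66, 1.14 and 1.01. In cHF+PC+R replicate 3 those of Gsta1, Gsta2, Gstm1 and Gstm3 were 1.79, 1.38, 1.31 and 1.01. The other 6 livers of the group lay below 0 for Gsta1 and at or below 0.25 for the other 3 genes. In cHF+PC, replicate 6 was highest for Gsta1 and Gsta2, at 1.73 and 1.74, and replicate 2 for Gstm1 and Gstm3, at 1.07 and 0.76. No cHF liver exceeded 0 in any of the 4 genes.

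**Figure D3:**
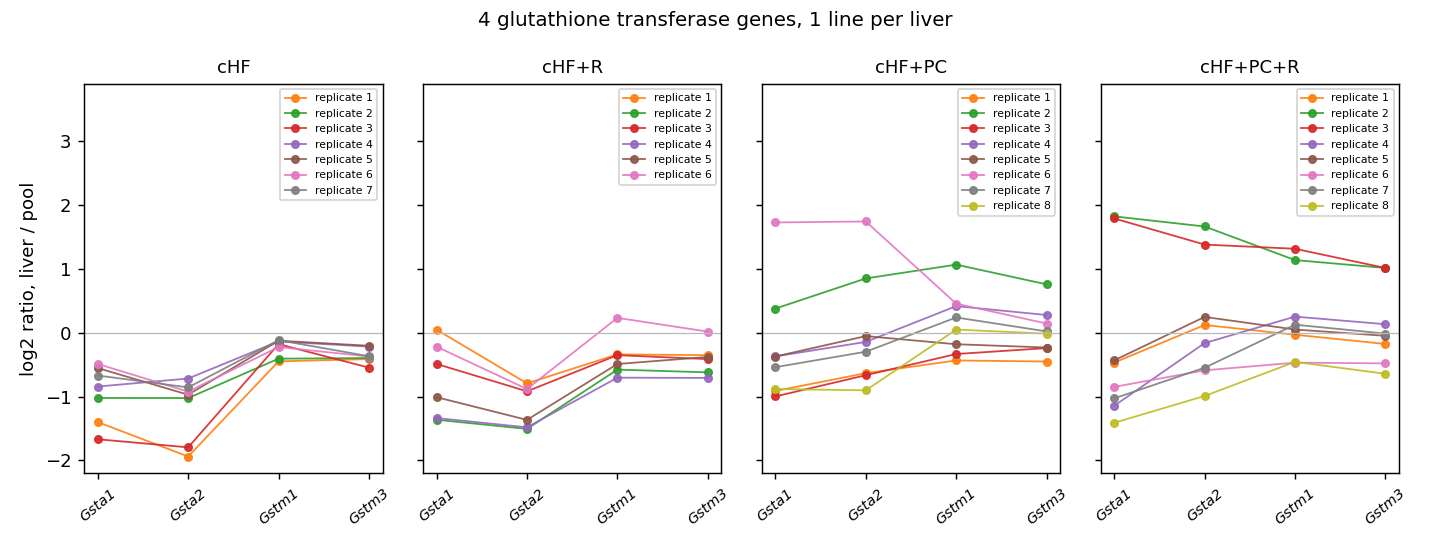
Log2 ratio to the pool of Gsta1, Gsta2, Gstm1 and Gstm3 (horizontal axis) in each liver, with 1 line and colour per replicate and 1 panel per diet group; lines only join values of 1 liver. In cHF+PC+R, replicates 2 and 3 lie above 1 for all 4 genes while the other 6 livers lie at or below 0.25.

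Some members had probes that did not give the same change, and some probes can bind the transcripts of relatives. The clearest case was Ugt1a10, which rose by 1.07 ± 0.340 in cHF+PC+R against cHF (adjusted p = 0.0431) at a probe that also lists Ugt1a9. A second probe next to it in mm9 had a change of 0.02 (adjusted p over probes = 0.89) and was above background on only 13 arrays. The call was lost without any 1 of 12 of the 15 arrays, with a highest adjusted p of 0.0921. In cHF the log2 ratio of Ugt1a10 ran from -1.65 to -0.80, and 1 cHF+PC liver, replicate 2, reached 2.36. The first 30 of 60 bases of probes of Ugt1a10, Ugt1a6b and Gstt2 are printed because the calls rest on them.
Ugt1a10, chr1:89952780-89952839, change 1.07: acagacctctttagcccagtgtctatttgg
Ugt1a10, chr1:89952720-89952779, change 0.02: tattttttcaaaactgctgttgaaattgcc
Ugt1a6b, chr1:90115493-90115552, change 0.43: accaaagtatgttctaaggcaagtacatct
Ugt1a6b, chr1:90004249-90004308, change 0.20: tccttacaccagaattctctgtggctgtta
Gstt2, chr10:75295206-75295265, change 1.04: cggaacagagatagaatggtcctggttctg
The bright probe of Ugt1a6b also lists Ugt1a10, Ugt1a6a and Ugt1a7c, so its rise cannot be assigned to 1 of these genes, and the probe that lists Ugt1a6b alone had a change of 0.20 (adjusted p over probes = 0.21). Gstm3 had changes of 0.46 and -0.19 at its 2 probes and Gstm4 changes of 0.16 and 0.40, none past the threshold. For Gstm1, Gstp1, Mgst1, Mgst3, Sult1a1 and Ugt2b35 the probes differed by at most 0.15 in cHF+PC+R against cHF. The brighter probe of Gstm1 is placed on chromosome 5 by the file, away from the mu cluster on chromosome 3, and gave 0.47 where the other gave 0.53.

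**Figure D4:**
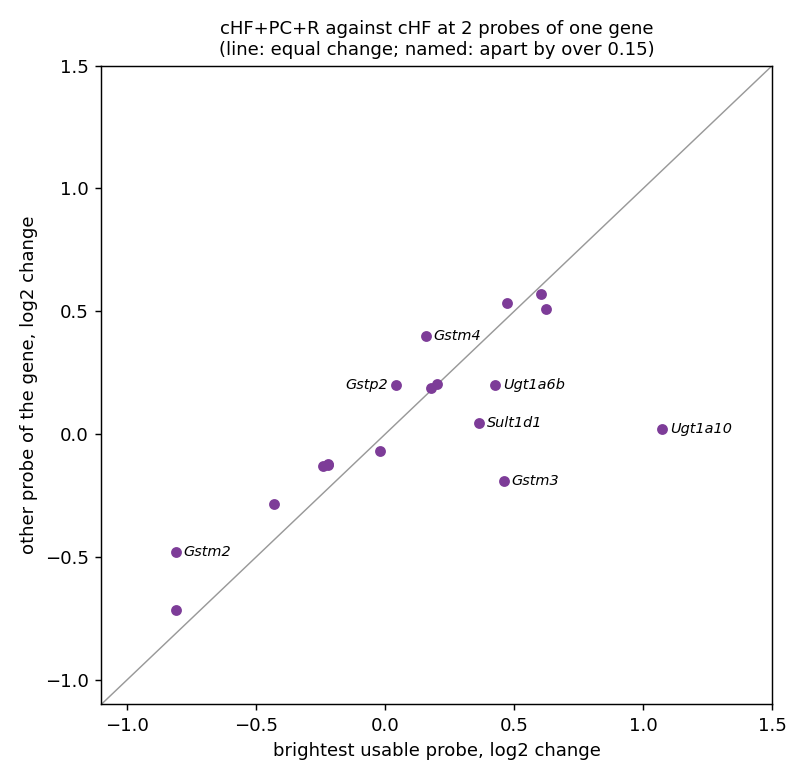
Log2 change in cHF+PC+R against cHF at the brightest usable probe of a gene (horizontal axis) and at each further probe of it (vertical axis), for conjugation genes with over 1 probe; the line marks equal change. Ugt1a10, Gstm3, Sult1d1 and Ugt1a6b lie well below the line, with 1.07 against 0.02 for Ugt1a10.

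Enzymes that supply or follow conjugation were counted from lists that are separate from the members. In cHF+PC against cHF, 1 of 4 tested genes of UDP-glucuronic acid supply passed (Gusb, beta-glucuronidase, which removes glucuronic acid, fell by 0.19) and 0 of 6 of PAPS supply did. Of 11 genes of glutathione supply and recycling, Oplah, 5-oxoprolinase, rose by 0.28 and Ggct, which forms 5-oxoproline, fell by 0.48. The list medians were 0.01, -0.01 and 0.05, near the 0.00 of all genes. With phospholipids alone, 3.93% of the 19463 tested genes passed the threshold: 1.82% rose and 2.11% fell. Of 14 regulators of phase II genes 4 rose, the small Maf factors Mafg by 0.31 and Maff by 1.03 and the nuclear receptors Nr1i2 by 0.46 and Rxra by 0.22, while Ahr had a change of -0.19 (adjusted p = 0.513).

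With rosiglitazone, 3.12% of all genes were called, 2.02% higher and 1.09% lower. Of 4 genes of UDP-glucuronic acid supply 1 passed, Ugp2, which makes UDP-glucose and fell by 0.46 ± 0.102 (adjusted p = 0.00853). Of 10 genes of conjugate efflux Abcc4 rose by 1.05 ± 0.171 (adjusted p = 0.000342) and Abcb4, the phospholipid floppase, fell by 0.32. Among 14 other conjugating enzymes, 1 rose and 2 fell with rosiglitazone. As3mt, a methyltransferase of arsenic, rose by 0.64 ± 0.0769 (adjusted p = 7.23e-06). Nat8, an acetyltransferase of cysteine conjugates, fell by 0.52 ± 0.137 (adjusted p = 0.0281) and Gamt, which makes creatine, by 0.39 ± 0.0969 (adjusted p = 0.0208). Of the 14, 13 had a change below 0, with a median of -0.18, but with median centring 4 did, with a median of 0.11. With phospholipids As3mt fell by 0.40 ± 0.0715 (adjusted p = 0.00121) and Inmt, a methyltransferase of indoles, rose by 0.75 ± 0.147 (adjusted p = 0.00312). In cHF+PC+R against cHF, 5 of 10 efflux genes rose, Abcc3, Abcc4, Abcb1a, Abcc2 and Abcb1b by 0.73, 0.53, 0.50, 0.32 and 0.27, and none fell. The list's median was 0.22, against 0.01 over all genes, which became 0.07 with median centring. Of all genes, 9.51% were called in this comparison, 4.74% higher and 4.76% lower. Of 6 genes of PAPS supply and sulfate, Papss1, a synthase of PAPS, fell by 0.28 ± 0.0729 in the same comparison, and Sts, steroid sulfatase, rose by 0.20 ± 0.0629. Of the 14 other conjugating enzymes Inmt rose by 0.79, and Nat8, Gamt and Tpmt, the thiopurine methyltransferase, fell by 0.58, 0.48 and 0.43. Of 11 hydrolases and reductases 3 rose, Ces2a, a carboxylesterase, by 0.74 ± 0.118, the quinone reductase Nqo1 by 0.48 and the carbonyl reductase Cbr1 by 0.40.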

How the data were processed

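Scanner files of 29 arrays were used. They hold the linear Cy5 and Cy3 intensity of each spot, deposited by the authors as extracted with Agilent Feature Extraction 10.5.1.1, with positions in mm9, per the file headers. Per the labels' protocols, 1000 ng of RNA per liver was labelled with both dyes and the Cy3 products were pooled as a reference; the authors dropped 1 cHF and 1 rosiglitazone array before normalization. A deposited series-wide file of the authors gives log2 values of 25806 spots and follows each array's own Cy5 (r from 0.990 to 0.999, median 9.03 in each column). How it was normalized is not stated by the labels or headers, and it served as an alternative.

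Intensities were corrected with normexp (offset 50) and normalized by loess within arrays, with marked spots left out (limma 3.58.1, R 4.3.3). Each gene was represented by its brightest usable probe. The fit had 4 group means and shared 1 spread over all 29 arrays; tests are two-sided, and the replicates are livers of separate mice. Members and lists were chosen with earlier results of these data known. All called members, up to 10 each way, fixed anchor genes, and the 5 smallest p where fewer than 5 passed were named; ratios by group are given for the 12 members with the smallest adjusted p against cHF. The test was also run on simulated data with independent noise and the same spread in every group. Those data do not hold spreads that differ between groups, or genes high in the same livers. GRCm38.p6 served for names and promoters only.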

Additional observations from a re-analysis of the deposited data

Results flagged for a closer look

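Of 68 groups tested for a liver far from the others, over 17 named members, 4 contained one, and chance alone marks about 1 in 20 groups. In cHF+PC, replicate 2 had the lowest log2 ratio of Sult1b1, -0.48, where the next liver stood at 0.09. The same liver had the highest ratio of Ugt1a10, 2.36, with the next at -0.11. In cHF+PC+R, replicate 3 had the lowest ratio of Sult1b1, -0.64, with the next at -0.27, and the highest of Sult2a7, 1.09, with the next at 0.30.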

How the results depend on the processing

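The counts of called conjugation genes were 6 for cHF+PC, 4 for cHF+R and 14 for cHF+PC+R against cHF, and 7, 0 and 0 for cHF+PC+R against cHF+R, against cHF+PC and for the interaction. No called gene changed direction under any alternative, and single genes kept their call in 408 of 496 tests with another setting and in 384 of 450 with an array left out. In that order of the first 4 comparisons, median centring in place of loess gave 0, 1, 1 and 0, and scaling between arrays gave 3, 0, 1 and 0; the cause was not tested. Cy5 alone gave 8 for cHF+PC+R against cHF, 4 against cHF+R and 1 against cHF+PC. With only the groups compared in the fit, cHF+R against cHF gave 7. Against cHF+PC, array weights gave 4 and no background subtraction 1. With each array left out in turn, the counts ran from 4 to 9, 3 to 5, 10 to 14, 6 to 10, 0 to 1 and 0 to 0. Replicate numbers were not used as pairs in the main fit. Over 40 pairs of livers with the same number in other groups, the median correlation was 0.018, and 14 were above 0.1. Over 262 pairs that shared neither slide nor number it was -0.012, and 57 were above 0.1. Of the 40 pairs 27 also shared a slide, so these values do not separate number from slide. With the slide as a block the counts were 5, 3, 12, 8, 0 and 0. With the replicate number as a block the counts were 8, 3, 11, 8, 0 and 0. Keeping marked spots, an alternative chosen after seeing the data, gave 6, 4, 14 and 8, the added gene being Ugt2b38.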
